A study of Mus musculus with 96 samples.

Results

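The ADAMTS genes followed here encode 9 secreted proteases, Adamts1, Adamts2, Adamts4, Adamts5, Adamts7, Adamts9, Adamts10, Adamts12 and Adamts15. They were chosen by symbol, as 9 of the 15895 genes in the table and 9 of the 18 genes of the Adamts family in it. The choice was made with values of these samples in view, since Adamts15 is among the genes that fell most below starved cells. Every comparison of a chosen gene after serum with starved cells is therefore given as a description, without a test. All libraries came from primary fibroblasts that had been isolated from CF-1 mouse embryos at day 13. The cells were kept for 36 h in medium with 0.5% fetal calf serum and then brought to 20% serum, and polyA RNA was collected over 2 time courses, called Cycle 1 and Cycle 2. The groups are the starved cells, taken 1 h before serum and at 0 h, and the cells after serum, up to 38 h in Cycle 1 and up to 27 h in Cycle 2. No untreated control that stayed in low serum was among the groups, and each time was sampled once per Cycle, so the replicate of a time or window is the Cycle (n = 2).

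ADAMTS proteins are zinc metalloproteases of the extracellular matrix that carry a disintegrin-like module and thrombospondin repeats. They are made as inactive precursors, and furin-like convertases remove the propeptide. Adamts1, Adamts4, Adamts5, Adamts9 and Adamts15 belong to the branch that cleaves large hyaluronan-binding proteoglycans such as versican and aggrecan. Adamts2 removes the amino-terminal propeptide of fibrillar procollagens, Adamts7 and Adamts12 form a pair of related proteases that bind cartilage oligomeric matrix protein, and Adamts10 is associated with fibrillin microfibrils. Fibroblasts are a main source of both these enzymes and their substrates.

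Sequences upstream of the start are shown for the 4 of 9 genes found by symbol in the RefSeq promoter table. They are the 250 bases before the RefSeq start (GRCm38.p6), read 5′ to 3′ on the strand of the gene, and each matched NCBIM37 at 1 place, at chr16:85803359-85803608 (minus strand) for Adamts1, chr11:50415337-50415586 (plus) for Adamts2, chr6:92893529-92893778 (minus) for Adamts9 and chr15:10994278-10994527 (plus) for Adamts12. Capitals mark the GC box GGGCGG on either strand (written CCGCCC on the other strand) and the TATA box TATAAA.
Adamts1: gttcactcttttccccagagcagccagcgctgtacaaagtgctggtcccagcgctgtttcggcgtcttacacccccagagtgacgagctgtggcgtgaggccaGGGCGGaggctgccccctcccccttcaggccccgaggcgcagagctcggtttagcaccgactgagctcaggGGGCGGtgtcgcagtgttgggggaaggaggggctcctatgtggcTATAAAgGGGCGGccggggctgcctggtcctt
Adamts2: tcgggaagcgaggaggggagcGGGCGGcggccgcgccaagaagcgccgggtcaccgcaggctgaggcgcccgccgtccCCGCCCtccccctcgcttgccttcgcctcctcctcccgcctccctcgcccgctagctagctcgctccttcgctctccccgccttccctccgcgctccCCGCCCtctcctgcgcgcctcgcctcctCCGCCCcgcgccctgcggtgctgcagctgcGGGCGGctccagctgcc
Adamts9: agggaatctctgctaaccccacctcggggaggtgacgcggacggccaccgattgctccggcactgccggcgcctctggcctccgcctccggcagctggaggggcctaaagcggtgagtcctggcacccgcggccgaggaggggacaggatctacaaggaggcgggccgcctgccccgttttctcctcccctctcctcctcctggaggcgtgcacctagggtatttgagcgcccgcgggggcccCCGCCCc
Adamts12: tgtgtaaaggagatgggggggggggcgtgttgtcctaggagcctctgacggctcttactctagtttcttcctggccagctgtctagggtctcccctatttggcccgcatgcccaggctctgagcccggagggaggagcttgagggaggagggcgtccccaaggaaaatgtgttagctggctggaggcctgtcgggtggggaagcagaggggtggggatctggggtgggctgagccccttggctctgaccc
The GC box occurred 3 times in Adamts1, 5 times in Adamts2 and once in Adamts9, and 32.7% of the 32851 promoters in the table held it. The TATA box was found in Adamts1 only among these 4, between 32 and 27 bases before the start, and in 12.4% of all promoters. The GC content was 65.6% in Adamts1, 78% in Adamts2, 71.2% in Adamts9 and 63.2% in Adamts12, against a median of 52.4% over all promoters. The letters TGACGTCA (in 1.55% of all promoters), TGANTCA (6.75%), CACGTG (6.02%) and CCAAT (33.8%) and the CArG box (1.47%) were not in these 4 windows on either strand.

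Values are a normalized signal, the reads on the exons of a gene scaled so that each library totals 10000000 reads. Sequencing depth, read from the value of a single read in a library, was 5067432 to 14500278 reads, with a median of 10832557. All 7 fibroblast markers were in the table, with a summed signal of 249509 to 336407 in the starved libraries, where the 5 macrophage markers in the table summed to 1043 to 3309 and the 4 endothelial markers to 176 to 272. Col1a1 and Col1a2 gave most of the fibroblast sum, with starved means of 112992 and 153350 in Cycle 1. After serum the fibroblast sum had a median of 174737, the macrophage sum 998, with a highest value of 4598, and the endothelial sum 110. The 3 muscle markers summed to 609 to 1667 in starved cells and to 313 to 2180 after serum. Epithelial and neural sums were at most 531 and 372 in any library. The 3 cartilage markers, aggrecan among them, summed to 217 to 407 in starved cells and to 181 to 1197 after serum, with a median of 552. The part of these markers in the results was not tested. In RNA of whole cultures, fewer cells of a type and less RNA per cell cannot be told apart. The 0 h libraries already held RNA of the immediate early genes: Fos was 914 at 1 h before serum and 24883 at 0 h in Cycle 1, and 466 and 15149 in Cycle 2, so the starved mean includes a library with this RNA. The part of this RNA in the results was not tested.

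Before serum, the chosen genes spanned a wide range. On the scale of signal per kilobase of exon, which allows genes to be compared, the mean level over the 4 starved libraries was 669 for Adamts1, 326 for Adamts2, 237 for Adamts5 and 178 for Adamts10. It was 78.0 for Adamts12, 63.0 for Adamts15, 61.7 for Adamts4, 61.5 for Adamts7 and 61.2 for Adamts9. The last 4 in that order were closer to each other than the spread of any of them between starved libraries. At 24-27 h the order by the same measure had changed in its lower part: Adamts1 stood at 255, Adamts2 at 147, Adamts5 at 97.3, Adamts10 at 77.9, Adamts12 at 66.1, Adamts9 at 38.4, Adamts7 at 22.2, Adamts4 at 20.0 and Adamts15 at 0.461. Adamts15 was thus level with Adamts4, Adamts7 and Adamts9 in starved cells and far below each of them later. Adamts2 and Adamts10 are listed as averages over transcripts, so their levels per kilobase depend on which transcripts were averaged.

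Some of the chosen genes had different starved levels in the 2 Cycles. Adamts10 was 1037 and 923 in the starved libraries of Cycle 1 and 506 and 468 in those of Cycle 2, and these values do not overlap. Adamts7 was 412 and 383 in Cycle 1 and 269 and 260 in Cycle 2, again without overlap. A limma test of Cycle 2 minus Cycle 1 over these 4 libraries, on log2(value + 1), gave a difference of -1.01 (SE 0.111, Benjamini-Hochberg adjusted p = 0.0242) for Adamts10 and -0.58 (SE 0.0909, adjusted p = 0.0383) for Adamts7. These were 2 of 9 genes called, where 19.4% of all genes were called. The adjusted p of limma was 0.0967 for Adamts2, 0.169 for Adamts1 and 0.178 for Adamts9, and 0.647 or more for the other 4. Without any one of the 4 libraries no gene of the table was called, with 5101 genes at an unadjusted p under 0.05 when the library 1 h before serum in Cycle 1 was left out, and the adjusted p of Adamts10 was then 0.0907 to 0.146. No source used here says that the libraries of a Cycle came from separate cultures, so these p-values measure only the spread between libraries. The test ignored the hour, so this spread includes any change from 1 h before serum to 0 h. For Adamts1 the 0 h library was 1.45 times the earlier one in Cycle 1 and 1.29 times in Cycle 2.

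**Figure D1:**
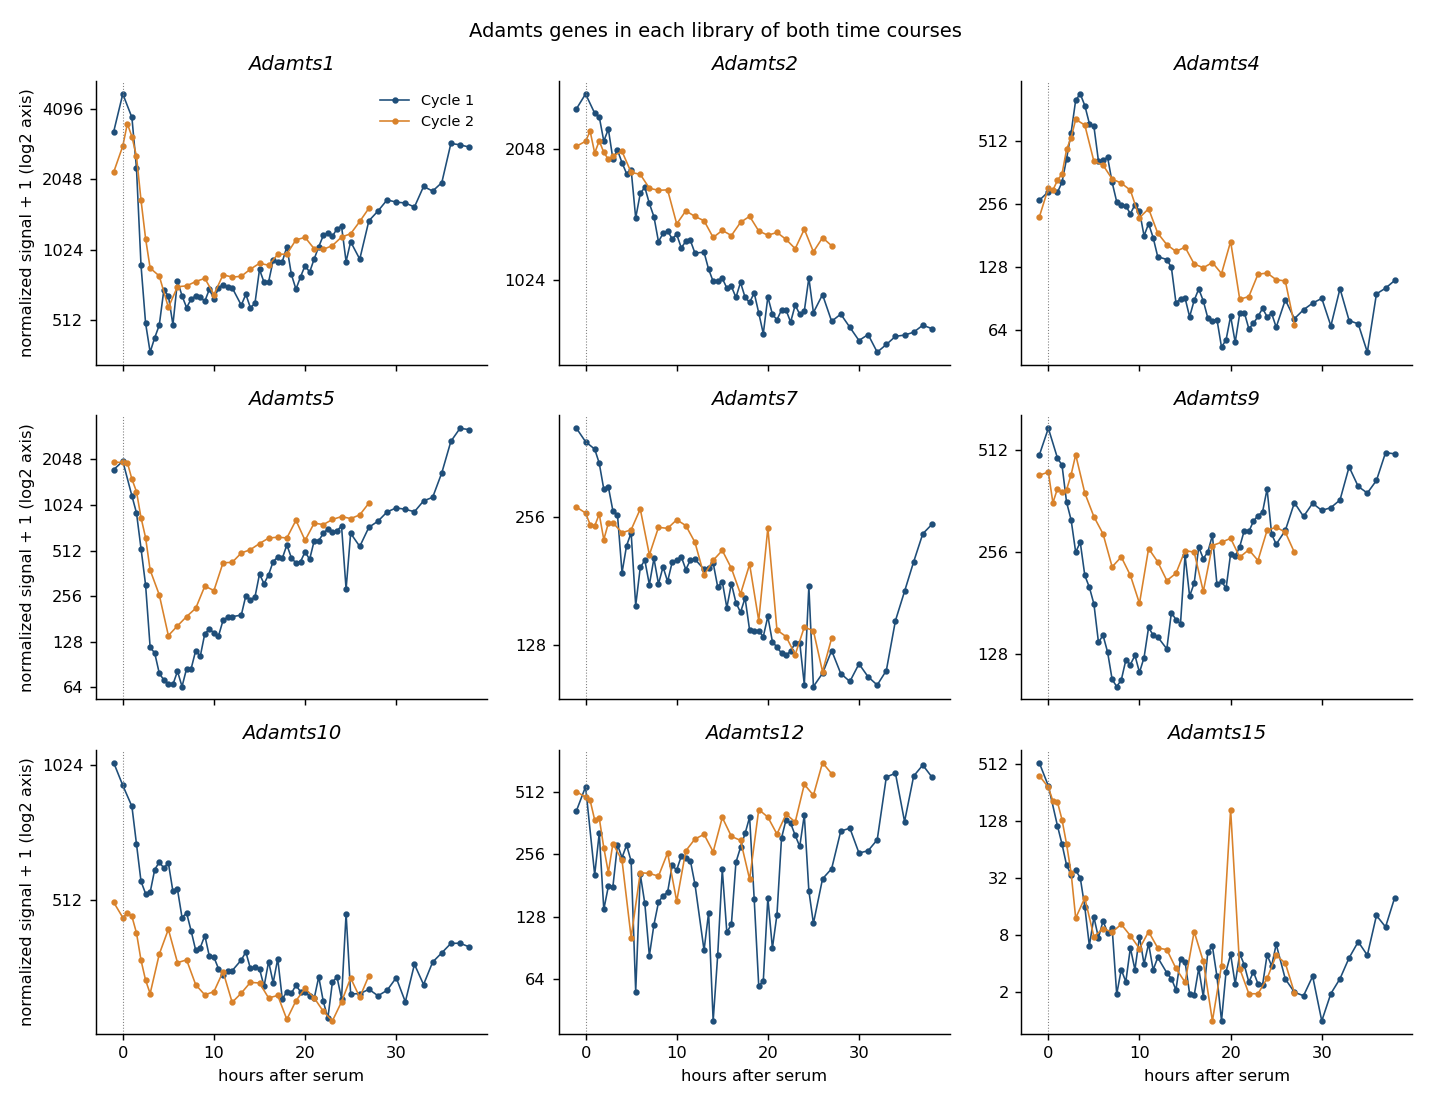
Normalized signal + 1 of the 9 genes (log2 axis) against hours after serum, with a point per library, Cycle 1 in blue and Cycle 2 in orange, and a dotted line at 0 h. Adamts1 and Adamts5 dip and recover, Adamts4 peaks at 3 to 3.5 h and then falls, and Adamts15 drops to a few units, with 1 high library at 20 h of Cycle 2.

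After serum most of the chosen genes fell below the starved level of their Cycle. In 7 of the 9 the value was below 0.5 of starved at some time in both Cycles, which 47.2% of all genes also reached, and the other two were Adamts2 and Adamts10, which did so in Cycle 1 only. Adamts4 alone was above 2 times starved in both Cycles, as were 17.8% of all genes. Because the choice of genes used this contrast, these counts only describe it. The median log2 difference from starved over the 9 genes was -0.49 at 1-3 h, -1.46 at 7-10 h and -1.30 at 24-27 h, beside -0.24, -0.16 and -0.16 over all genes. Rescaling the libraries by TMM moved the median of all genes at 1-3 h from -0.24 to -0.02. All windows share the same starved libraries. Where values are said below to lie under starved libraries, the share of all genes that do so was not counted. For scale, limma called 31% of all genes lower at 24-27 h than in starved cells.

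**Figure D2:**
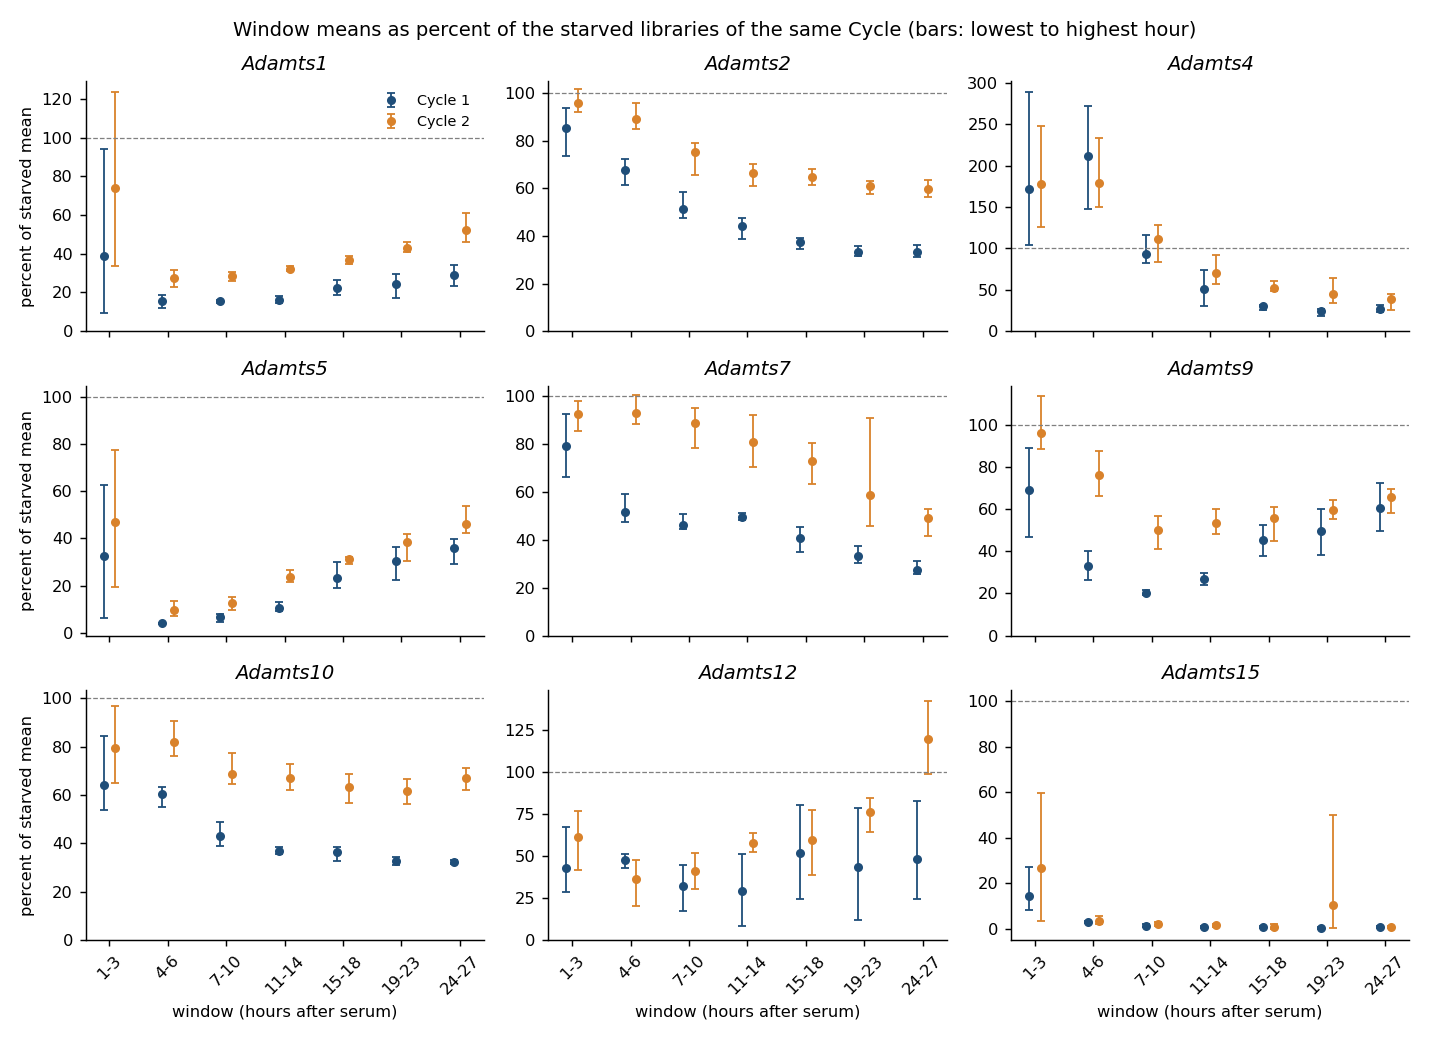
Mean of each window as percent of the starved mean of the same Cycle (vertical axis) for the 9 genes, by window in hours after serum, with bars from the lowest to the highest hour of the window and a dashed line at 100%. Cycle 2 lies above Cycle 1 in most windows, and the 24-27 h means range from under 1% for Adamts15 to 120% for Adamts12 in Cycle 2.

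Among the proteoglycan-cleaving proteases, Adamts1 and Adamts5 fell within hours and then recovered. They lie next to each other on mouse chromosome 16, both on the minus strand and 55057 bases apart (NCBIM37 chr16:85794072-85803358 for Adamts1 and chr16:85858415-85901370 for Adamts5). Their courses were alike, with a Pearson correlation of 0.83 in Cycle 1 and 0.88 in Cycle 2 over 31 shared times, a description of time courses in the same libraries. Genes far apart reached similar values: Adamts2 on chromosome 11 and Adamts4 on chromosome 1 correlated at 0.87 in both Cycles.

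Adamts1 was 3275 and 4749 in the starved libraries of Cycle 1 (1 h before serum and 0 h) and 2201 and 2845 in those of Cycle 2. It was highest after serum at the first time sampled, 3770 at 1 h in Cycle 1 and 3547 at 0.5 h in Cycle 2, the latter above both starved libraries of its Cycle. It then dropped to its lowest value, 374 at 3 h in Cycle 1 and 581 at 5 h in Cycle 2, which were 0.0931 and 0.230 of starved. The low values lie outside the range of the starved libraries in both Cycles. At 4-6 h it was 487, 652 and 754 at the whole hours of Cycle 1 and 792, 581 and 712 in Cycle 2, without a common direction within the window. The means of 24-27 h were 1175 ± 193 (SD over 4 hours) in Cycle 1 and 1314 ± 173 in Cycle 2, or 29.3% and 52.1% of starved. In Cycle 1, the only one followed further, the mean was 2485 ± 533 over 34-38 h, 61.9% of starved.

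Adamts5, the main aggrecan-cleaving protease of mouse cartilage, had a deeper trough. It was 1749 and 1991 in the starved libraries of Cycle 1 and 1957 and 1956 in those of Cycle 2. At 4, 5 and 6 h it stood at 78.4, 66.6 and 80.7 in Cycle 1 and at 260, 140 and 162 in Cycle 2. These 6 values lie far below every starved library, and those of Cycle 1 lie below those of Cycle 2. The lowest values were 63.8 at 6.5 h in Cycle 1 and 140 at 5 h in Cycle 2, which are 0.0341 and 0.0713 of starved. Recovery was slower than the fall: the mean was 121 ± 29.5 at 7-10 h and 670 ± 90.9 at 24-27 h in Cycle 1, and 243 ± 52.5 and 905 ± 99.5 in Cycle 2 (SD over 4 hours each). In Cycle 1 it passed the starved mean at 36 h with 2694, reached 3283 at 37 h, 1.76 times starved, and was 3218 at 38 h. No second Cycle covers these hours.

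The time after serum was tested between consecutive windows. These contrasts compare no starved library, although the starved windows are part of the fit that estimates the spread. Adamts1 fell from 1-3 h to 4-6 h by 1.37 on the log2 scale (SE 0.212, limma adjusted p = 0.00312, n = 2 Cycles), lower in both Cycles. The 1-3 h means were carried by the first hours: in Cycle 1 it was 3770 at 1 h and 2290 at 1.5 h, but 497 at 2.5 h and 374 at 3 h, already at or under the values of 4-6 h. Adamts5 fell by 2.64 (SE 0.283, adjusted p = 0.000964), also in both. They were the 2 genes called of the 8 tested there, Adamts15 being left out because its low values after serum were used to choose it, and 22.6% of all genes were called in this comparison, 10.8% lower. From 4-6 h to 7-10 h none of the 8 was called by limma, and 2.44% of all genes were. Adamts4 came nearest, with -0.93 (SE 0.256, adjusted p = 0.0901), and an edgeR test on the recovered reads gave -1.08 with an adjusted p of 0.047. From 7-10 h on, limma called 0 genes of the whole table in each of the 4 consecutive comparisons (0%), with 1482, 608, 456 and 268 genes at an unadjusted p under 0.05, and edgeR called 3, 0, 0 and 0. In all, 2 of 48 pairs of gene and comparison were called.

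A wider comparison, 24-27 h minus 4-6 h, was added after the values had been seen. At 4-6 h Adamts1 and Adamts5 were near their lowest values and Adamts4 was high. The p-values below do not allow for that choice of window and only describe these genes. The comparison called 5 of the 8 genes, 2 higher and 3 lower, where 36.6% of all genes were called, 19.5% higher and 17.1% lower. Adamts5 rose by 2.70 on the log2 scale (SE 0.283, limma adjusted p = 0.000186) and Adamts1 by 0.91 (SE 0.212, adjusted p = 0.00996), each in both Cycles. Adamts4 fell by 2.60 (SE 0.256, adjusted p = 0.000151), Adamts7 fell by 0.91 (SE 0.228, adjusted p = 0.0137) and Adamts2 fell by 0.80 (SE 0.216, adjusted p = 0.0188), each in both Cycles. For the others the differences were -0.60 for Adamts10 (SE 0.235, adjusted p = 0.0716), 0.86 for Adamts12 (SE 0.347, adjusted p = 0.0794) and 0.33 for Adamts9 (SE 0.321, adjusted p = 0.452).

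Adamts4, the other aggrecanase known from cartilage, was the one chosen gene above 2 times starved in both Cycles (NCBIM37 chr1:173180552-173190768, plus strand). It was 266 and 293 in the starved libraries of Cycle 1 and 220 and 305 in those of Cycle 2. It reached 864 at 3.5 h in Cycle 1, 3.09 times starved, and 652 at 3 h in Cycle 2, 2.48 times starved. Values above 2 times starved were found in 6 of 61 libraries after serum in Cycle 1 and 3 of 30 in Cycle 2. From the peak it fell through the starved level, with means of 93.4% of starved in Cycle 1 and 112% in Cycle 2 at 7-10 h. At 24, 25, 26 and 27 h it was 73.0, 64.8, 88.0 and 71.3 in Cycle 1 and 119, 110, 109 and 66.6 in Cycle 2, all below the 4 starved libraries. The window means were 26.6% and 38.5% of starved. It did not return later in Cycle 1, where 34-38 h gave 84.0 ± 25.1 (SD over 5 hours), 30.1% of starved. Adamts4 thus went up over the hours in which Adamts5 went down, and their correlation over the 31 shared times was -0.46 in Cycle 1 and -0.39 in Cycle 2.

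Adamts9, which also cleaves versican, had a trough that was deeper in Cycle 1 than in Cycle 2 (NCBIM37 chr6:92722693-92893486, minus strand). It was 494 and 594 in the starved libraries of Cycle 1 and 431 and 441 in those of Cycle 2. The lowest value was 101 at 7.5 h in Cycle 1 and 179 at 10 h in Cycle 2. The mean of 7-10 h was 20.3% of starved in Cycle 1 and 50.1% in Cycle 2, and by 24-27 h it was 60.4% and 65.7%. In Cycle 1 it went on to 80.8% at 34-38 h. At 3 h the Cycles lay apart, with 255 in Cycle 1 and 496 in Cycle 2. Exons of Adamts9 share 1381 bases with A730049H05Rik and 424 with Gm15737 on the opposite strand, and since the counting ignored strand, reads of these genes and of Adamts9 cannot be told apart there.

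Adamts15, the remaining versican-cleaving protease, lost nearly all of its signal and was not tested (NCBIM37 chr9:30706740-30730037, minus strand). It was 525 and 298 in the starved libraries of Cycle 1 and 383 and 288 in those of Cycle 2, which were 349, 327, 401 and 350 reads. In both Cycles the lower of these was the 0 h library, which already held Fos RNA. At 1, 2 and 3 h it was 112, 42.7 and 37.4 in Cycle 1 and 201, 71.7 and 11.1 in Cycle 2. The fall continued in the next window, with means of 12.2 ± 2.34 in Cycle 1 and 11.3 ± 6.51 in Cycle 2 at 4-6 h (SD over 3 hours), which are 2.95% and 3.36% of starved. At 24-27 h the means were 3.03 ± 2.02 and 2.43 ± 1.30 (SD over 4 hours), 0.736% and 0.726% of starved. The fall was thus of similar size in both Cycles.

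At this depth the late values of Adamts15 rest on single reads. From 7 h on, 2 of 49 libraries of Cycle 1 had 0 reads, 31 had 1 to 3 and 16 had 4 to 12. In Cycle 2, 1 of 21 had 0 reads, 9 had 1 to 3, 10 had 4 to 12 and 1 had more. The libraries at 0 were those of 19 h and 30 h in Cycle 1, where a limit of 3 counts per library allows a value of 2.83, at least 146-fold lower than starved, and that of 18 h in Cycle 2, at least 99.8-fold lower. Such limits cover counting error only. Differences among the other late libraries were not detectable at 1 to 3 reads. In Cycle 1 the last 3 libraries, at 36, 37 and 38 h, gave 11.9, 8.77 and 18.8, above the 28-33 h range of 0 to 3.61 and still under the lowest starved library.

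One library stood apart for Adamts15, and for other genes as well. At 20 h of Cycle 2 its value was 168, from 168 reads and 50.0% of starved, between 2.83 at 19 h and 2.56 at 21 h. At 20 h of Cycle 1 it was 4.02. Of 12730 genes compared with their neighbouring hours, Adamts15 had the largest log2 difference in that library, 5.51. Genes outside the family, picked after their values were seen, stood out too: Chodl was 35.9 between 1.89 and 4.26, Agtr2 was 62.8 between 10.4 and 5.97, and Olfml1 was 22.9 between 2.83 and 4.26. They ranked 3, 5 and 11 of 12730 and stood at 10.1%, 6.02% and 12.8% of starved. Lgr5, looked at with them, departed less, at 71.8 between 46.2 and 39.2, and ranked 383. Other chosen genes also departed from 19 and 21 h there: Adamts7 was 240 between 145 and 138, Adamts4 was 169 between 118 and 88.7, and Adamts5 was 596 between 810 and 776, while Adamts1, Adamts2 and Adamts10 stayed within 0.10 log2 units of their neighbours. The mean of Adamts15 at 19-23 h of Cycle 2 was 35.0 ± 74.1 with this library and 1.81 ± 1.02 without it, or 10.4% and 0.540% of starved. Leaving the library out changed no call of the 8 tested genes.

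**Figure D3:**
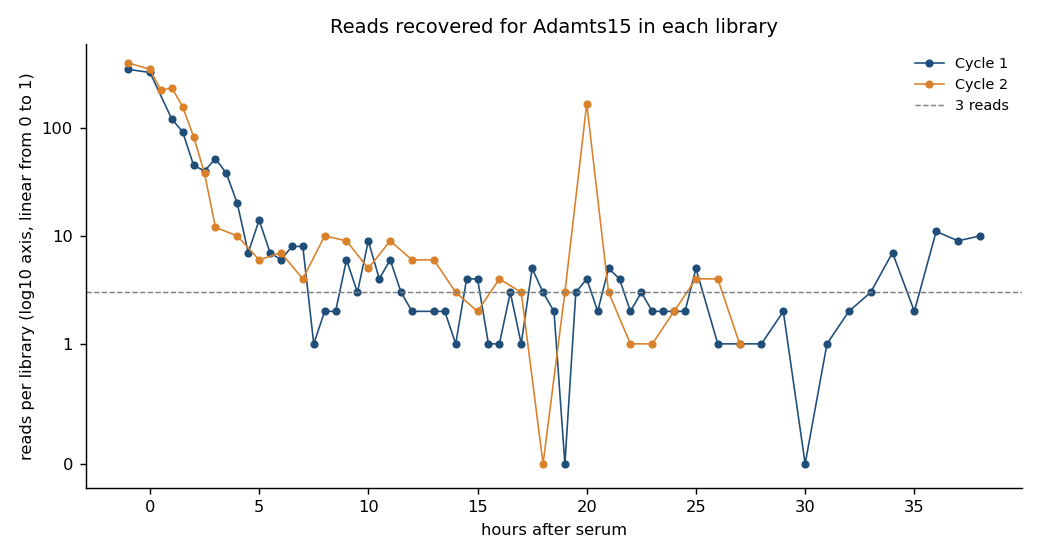
Reads recovered for Adamts15 in each library (vertical axis, logarithmic above 1 read and linear from 0 to 1) against hours after serum, Cycle 1 in blue and Cycle 2 in orange, with a dashed line at 3 reads. Both Cycles fall from over 300 reads to 12 or fewer from 7 h on, except for 168 reads at 20 h of Cycle 2.

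The procollagen and microfibril enzymes declined gradually up to 24-27 h. Adamts2, the procollagen N-proteinase (NCBIM37 chr11:50415586-50621075, plus strand), was 2529 and 2735 in the starved libraries of Cycle 1 and 2075 and 2130 in those of Cycle 2. At 24, 25, 26 and 27 h it was 868, 861, 947 and 823 in Cycle 1 and 1339, 1188, 1280 and 1226 in Cycle 2. All 8 values lie below every starved library, and the Cycles do not overlap. How many of all genes separate in this way was not counted. The window means were 33.2% and 59.8% of starved. It had the smallest hour-to-hour scatter of the 9 genes, an SD of 0.101 log2 units in Cycle 1 and 0.0868 in Cycle 2, against medians of 0.185 and 0.145 over 10485 genes with a mean of at least 50. Its course was most like those of Col1a2, which encodes a chain of the collagen that Adamts2 processes, with a likeness of 0.97, and Cpxm2, also 0.97. Likeness is the lower of the Pearson correlations in Cycle 1 and Cycle 2 over the 31 shared times, among 10511 genes with a mean of at least 50.

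Adamts10, a partner of fibrillin (NCBIM37 chr17:33661149-33690727, plus strand), went to 309, 316, 316 and 324 at 24-27 h of Cycle 1 and to 303, 343, 311 and 347 in Cycle 2. The late values of both Cycles overlap, although the starved values did not. The window means were therefore 32.3% of starved in Cycle 1 and 66.9% in Cycle 2. In Cycle 1 its lowest value was 279 at 22.5 h, and the mean of 34-38 h was 397 ± 16.0 (SD over 5 hours), 40.5% of starved, with no hour under 372, above the 24-27 h values of that Cycle. From 1-3 h to 4-6 h the fitted difference was -0.02 (SE 0.235, limma adjusted p = 0.970).

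Adamts7 and Adamts12, the pair related by structure, had different courses. Adamts7 (NCBIM37 chr9:90057816-90102909, plus strand) was at 51.7% of starved at 4-6 h in Cycle 1 and still at 92.9% in Cycle 2. It went to 103, 102, 109 and 124 at 24-27 h of Cycle 1 and 140, 138, 110 and 132 in Cycle 2. All of these lie below the lowest starved library, 260, and the means were 27.5% and 49.1% of starved. In Cycle 1 it then went from 111 at 33 h to 245 at 38 h, with a mean of 50.0% of starved over 34-38 h. Exons of Adamts7 share 122 bases with Tbc1d2b on the opposite strand, whose mean value was 684, and reads there cannot be told apart.

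Adamts12 (NCBIM37 chr15:10994545-11276622, plus strand) was 413 and 540 in the starved libraries of Cycle 1 and 511 and 480 in those of Cycle 2. At 4-6 h it was 245, 236 and 204 in Cycle 1 and 238, 100 and 207 in Cycle 2, below all starved libraries. At 24-27 h it was 395, 118, 194 and 217 in Cycle 1, below starved, but 554, 491, 705 and 623 in Cycle 2, where 3 of the 4 hours lie above every starved library of that Cycle. The means were 48.4% and 120% of starved, so the direction at 24-27 h differed between the Cycles. At 34-38 h of Cycle 1 the mean was 578 ± 123 (SD over 5 hours), 121% of starved.

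In the last libraries of Cycle 1, Adamts5, Adamts12, Adamts7 from 34 h and Adamts15 at 36-38 h were higher than at 28-32 h. Adamts1 had means of 1652 at 28-33 h and 2485 at 34-38 h. These libraries differed from those before them in other ways. Fos was 87.3 to 119 at 28-32 h and 9.97 to 36.8 at 33-38 h, and Egr1, another immediate early gene, was 634 to 918 and 66.4 to 452. The balance of long and short genes, defined in the next paragraph, was -0.16 to 0.10 at 28-32 h and -0.02 to 0.58 at 33-38 h. The library at 35 h had the balance of -0.02, and there Adamts12 was 366 between 627 at 34 h and 608 at 36 h. The 27 h library of Cycle 2 also had low values, with Fos at 13.7 and Egr1 at 63.6. At 24-26 h of Cycle 2 they were 123 to 171 and 684 to 1598. That library is part of the 24-27 h window used in the comparisons above. The part of these differences in the late values was not tested.

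The hours of Adamts12 scattered more than those of the 7 other chosen genes apart from Adamts15. The SD of its log2 difference from neighbouring hours was 0.602 in Cycle 1 and 0.467 in Cycle 2, where the medians over genes with a mean of at least 50 were 0.185 and 0.145. It was 385 at 18 h and 58.4 at 19 h of Cycle 1, and 39.3 at 14 h. At these hours the low values of Adamts12 lay in libraries with a low balance of long and short genes. This balance is the median log2 deviation of genes with over 6000 exon bases minus that of genes with under 1500. It was -0.62 at 14 h and -0.67 at 19 h of Cycle 1, and 0.27 at 18 h. Between 4 and 27 h of Cycle 1, the 10 libraries with a balance under -0.4 had Adamts12 values of 39.3 to 194 with a median of 85.0, and the other 34 had 81.9 to 395 with a median of 221. In the same libraries the medians were 981 and 1058 for Adamts2, 353 and 282 for Adamts5, and 204 and 202 for Adamts9. These genes have 7266, 8091 and 8016 exon bases in the longest transcript, more than the 6234 of Adamts12. The sets of libraries hold different hours, so courses over time also enter these medians. With the trend on exon length taken out, the SD of Adamts12 was 0.518 in Cycle 1 and 0.397 in Cycle 2, still above 0.185 and 0.145. The part of this balance in the swings and in the difference between the Cycles was not tested.

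**Figure D4:**
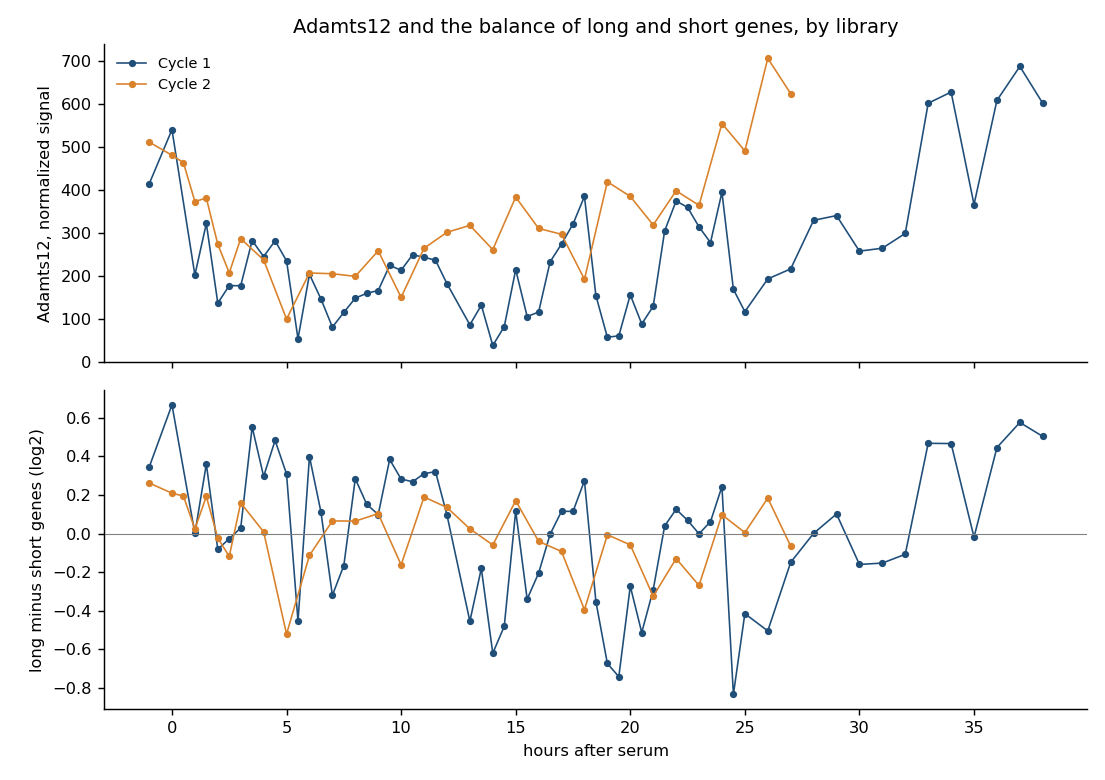
Upper panel: normalized signal of Adamts12 against hours after serum. Lower panel: balance of long and short genes of the same libraries in log2 units, both with a point per library, Cycle 1 in blue and Cycle 2 in orange. The low values of Adamts12 at 14 h and 19 h of Cycle 1 fall on libraries with a balance of -0.62 and -0.67.

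The courses of the chosen genes resembled those of other genes to different degrees, by the same measure of likeness. Adamts4 was most like Cd276 (0.97), an immune checkpoint ligand, and Pxdn (0.96), a peroxidase that cross-links collagen IV. Adamts5 was most like Chd3 (0.96) and Cd99l2 (0.95), and Adamts7 like Serpine2 (0.93), a protease inhibitor, and Anpep (0.91), an aminopeptidase. Adamts1 was most like Zcchc24 (0.91) and Zfp521 (0.90), Adamts15 like Steap3 (0.91) and Mmp11 (0.90), the latter another matrix metalloprotease, and Adamts10 like Asap3 (0.90) and Arap1 (0.88). The lowest best values were those of Adamts12, with Plcb4 (0.89) and Huwe1 (0.88), and Adamts9, with Cacna1g (0.88) and Atrnl1 (0.87). Among the chosen genes themselves, Adamts2 correlated with Adamts4 at 0.87 in both Cycles and with Adamts10 at 0.95 in Cycle 1 and 0.75 in Cycle 2.

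The rest of the family was mostly low and also fell. Of the other 10 ADAMTS proteases listed 9 were in the table. Against starved cells at 24-27 h, 8 of the 9 were called lower and none higher (31% and 17.6% of all genes), with Adamts6 not called. Every gene in the table reached at least 3.97 in some library. A gene as low after serum as Adamts18 can be in the table only through its starved or early values. Its means were 8.16 and 5.81 in starved cells and 0.440 and 0.470 at 24-27 h. Such a gene could hardly be called higher, so these counts only describe the family. From 1-3 h to 4-6 h, 4 of the 9 were lower and none higher (10.8% and 11.8% of all genes), with the largest changes in Adamts3, a procollagen N-proteinase like Adamts2, which fell by 1.18 on the log2 scale (SE 0.329, limma adjusted p = 0.0311), and Adamts18, which fell by 1.09 (SE 0.332, adjusted p = 0.0425) from means of 3.08 to 2.27 in Cycle 1 and 4.00 to 0.372 in Cycle 2, which are a few reads per library. Adamts8, which lies 20110 bases from Adamts15, had means of 22.5 and 10.9 in starved cells and 2.10 and 1.04 at 24-27 h, so it fell as well but from a far lower level than Adamts15. Adamts6 was 158 and 227 in starved cells and 118 and 327 at 24-27 h, opposite in direction between the Cycles, as was Adamts12.

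**Figure D5:**
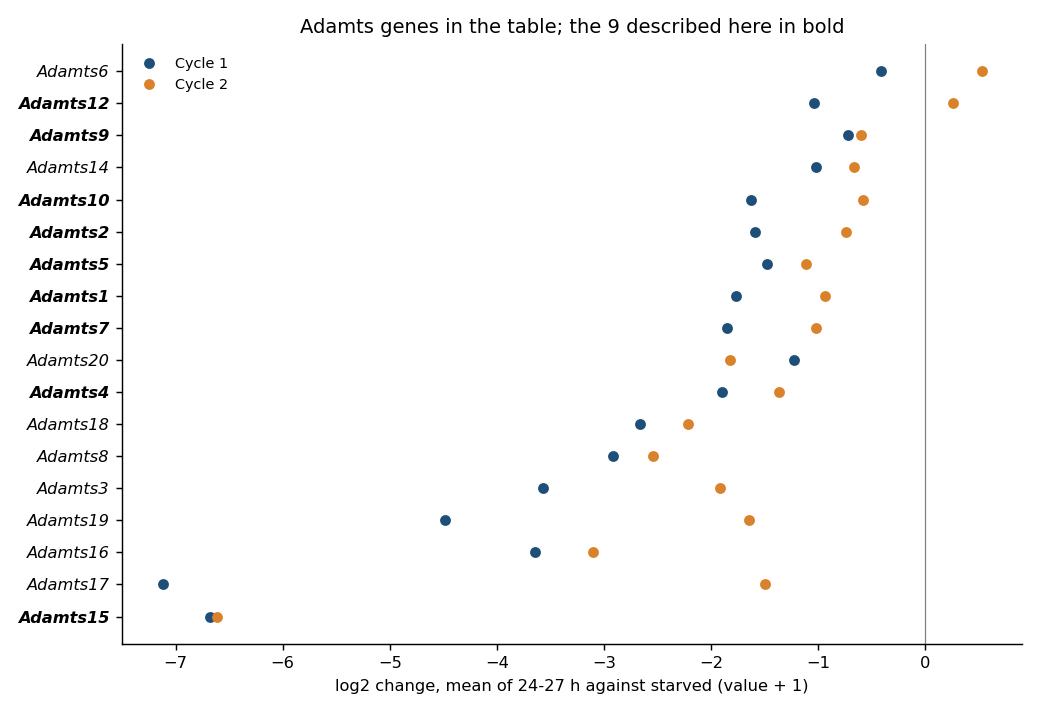
Log2 change of the 24-27 h mean against the starved mean of the same Cycle (horizontal axis, on values + 1) for the 18 Adamts genes in the table, with a point per Cycle and the 9 chosen genes in bold. Adamts15 is lowest by the mean of both Cycles, and Adamts6 and Adamts12 are the genes with a Cycle above 0.

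Genes that act with these proteases were counted from fixed lists in the same consecutive comparisons. From 1-3 h to 4-6 h, 10.8% of all genes were lower and 11.8% higher, and the counts below stand beside these shares. The lists also were drawn up with results of these samples known. In that step 3 of 7 ADAMTS-like proteins, which share the thrombospondin repeats but no protease, were lower and none higher, with Adamtsl1 down by a log2 difference of -1.16 (SE 0.329, limma adjusted p = 0.0332) and Thsd4 by -1.04 (SE 0.330, adjusted p = 0.0488). Among 11 proteoglycan substrates and hyaluronan partners 2 were lower. Vcan, versican itself, fell by 0.78 (SE 0.184, adjusted p = 0.0162), from means of 2343 to 1400 in Cycle 1 and 4247 to 2419 in Cycle 2. Tnfaip6, a hyaluronan-binding protein, fell by 2.33 (SE 0.304, adjusted p = 0.00171) after a peak of 2925 and 1631 at 1-3 h, above 396 and 445 in starved cells. Acan, aggrecan, was not called and had means of 99.5 at 1-3 h and 491 at 4-6 h in Cycle 1, and 49.0 and 99.8 in Cycle 2.

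Of 10 genes for procollagens and their processing, Tll1, a tolloid protease that removes the other procollagen propeptide, was the 1 called, and it rose by 2.12 (SE 0.377, limma adjusted p = 0.00528). Col1a2 went from 153350 and 110085 in starved cells to 41287 and 45815 at 24-27 h, while Adamts2 went to 875 and 1258. Of 8 inhibitors and clearance receptors 2 were lower in this step, the larger change being in Reck, a membrane protease inhibitor, which fell by 0.84 (SE 0.227, adjusted p = 0.0275), and A2m fell by 0.64 in the next (SE 0.136, adjusted p = 0.0481). Timp3, the main tissue inhibitor of ADAMTS proteases, was 8537 and 19252 in starved cells, 31176 and 26286 at 7-10 h and 6338 and 10109 at 24-27 h, and it was not called between consecutive windows. Among 4 convertases Pcsk5 fell by 0.67 (SE 0.191, adjusted p = 0.0332), and Furin was 1049 and 1297 in starved cells and 2144 and 2188 at 24-27 h. Of 5 enzymes that glycosylate thrombospondin repeats B3galtl fell by 0.39 (SE 0.123, adjusted p = 0.0487). Of 16 further matrix partners, Ctgf rose by 1.99 (SE 0.418, adjusted p = 0.0102) and Fbn2, a fibrillin, fell by 1.37 (SE 0.196, adjusted p = 0.00234).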

How the data were processed

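PolyA RNA of mouse embryonic fibroblasts in 2 time courses was sequenced as single 50 bp reads from stranded libraries. The deposited values are a normalized signal per gene, made by the authors with STAR on mm9 and HOMER counting on exons on both strands, scaled to 10000000 reads per library. Of 96 columns 95 were used (63 of Cycle 1, 32 of Cycle 2), since 1 name matches no library. Whole reads were recovered from the value of 1 read in each library, where 94.2% to 96.2% of values up to 20 reads lay within 0.1 of a whole read.

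Hours sampled in both Cycles were averaged in 8 windows per Cycle and fitted with limma 3.58.1 (R 4.3.3) on log2(value + 1), with the Cycle as the replicate block, Benjamini-Hochberg adjustment over all 15895 genes and a threshold of 0.05. The block comes from the labels, which give each library a Cycle, and each value is compared with the starved libraries of its own Cycle. Deviations of hours of the same Cycle from their mean over both Cycles correlated with a median of 0.423 over 465 pairs of hours, 408 of them over 0.1. edgeR 4.0.16 was run on the recovered reads as an alternative. On simulated data for 7-10 h minus 4-6 h, limma recovered 200 of 200 genes changed 4-fold and called 9 unchanged genes of 15895. The simulation drew every hour independently, with the same mean levels in both Cycles, and genes with low values were not among those changed. It therefore does not cover the correlation of hours within a Cycle or differences between the Cycles. Positions and exon lengths come from the NCBIM37 annotation, and 93.5% of genes had a length.

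The genes and lists were chosen with earlier results of these data known. Named are all 9 genes, per list the 2 genes with the largest change among those called between consecutive windows, genes that a sentence on the biology needs, and per chosen gene the 2 of highest likeness. Alternatives covered the block, pseudocount, low values, scaling, unit of the fit, baseline, single libraries and exon length. Other tools were Python 3.11.15, numpy 2.4.6, pandas 2.3.3 and matplotlib 3.10.9.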

Additional observations from a re-analysis of the deposited data

Results flagged for a closer look

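Of 117 groups of 4 to 10 libraries, 9 held a library whose gap to the nearest other passed Dixon's 95% critical value, and chance gives about 1 in 20. Of these, 3 lay in the library at 20 h of Cycle 2, within 19-23 h: Adamts15 at 168 (others 0.930 to 2.83), Adamts7 at 240 (others 121 to 145) and Adamts5 at 596 (others 759 to 820). In Cycle 2, Adamts2 at 10 h was 1377 where the others of 7-10 h were 1644 to 1662, Adamts5 at 15 h was 568 where the others of 15-18 h were 618 to 626, and Adamts9 at 17 h was 195 where the others of 15-18 h were 255 to 267. In Cycle 1, Adamts4 at 18 h was 69.8 where the others of 15-18 h were 87.1 to 89.9, and Adamts7 at 10 h was 202 where the others of 7-10 h were 177 to 180. Among the 4 starved libraries, Adamts5 was 1749 at 1 h before serum in Cycle 1, below 1956 to 1991 in the others.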

How the results depend on the processing

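Depth limits the late values of Adamts15, and 2 Cycles limit every test. Between consecutive windows 2 of 48 pairs were called, and 13 with single hours as the units of the fit, which treats hours of a Cycle as independent. All other alternatives gave 2 or, with edgeR on recovered reads, 3. Without the replicate block the count was also 2 (Adamts1 adjusted p = 0.00521 and Adamts5 0.011 by limma). For 24-27 h minus 4-6 h, 5 of 8 genes were called, and 2 with a 2-fold change also required. For starved cells of the Cycles, 2 of 9 were called, and 0 without any one of the 4 libraries (limma adjusted p of Adamts7 0.0981 to 0.187), where fewer samples are left. Leaving out a whole Cycle gives values but no test. Of 20 called values named in the consecutive and the added comparison, 0 changed sign under the alternatives that gave a value. Other list genes were not followed. The alternatives on exon length, the 20 h library and recovered reads, and the comparison of 24-27 h with 4-6 h, were chosen after seeing the data.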

Other observations

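Some values lie outside the shared hours. At 24.5 h of Cycle 1, Adamts10 was 477 between 309 at 24 h and 316 at 25 h, Adamts7 was 175 between 103 and 102, and Adamts5 was 284 between 744 and 665. The balance of long and short genes in this library was -0.83, the lowest of all libraries of Cycle 1. Among family members not followed above, Adamts17 had a starved mean of 173 in Cycle 1 and 5.75 in Cycle 2, and Adamts19 had 32.5 and 2.73.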
